A study of Mus musculus with 8 samples.

Results

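The Zbtb genes encode transcription factors that join a BTB domain to zinc fingers of the C2H2 type. They were taken as all rows of the deposited count table whose Ensembl ID carries a mouse symbol made of Zbtb, a number and at most one letter, with at least 10 reads in at least 4 of the 8 libraries. Of 40 symbols of that form, 37 passed this rule, out of 55414 gene rows in all. The members were selected on their read counts over all 8 libraries, irrespective of group. Each of the 37 had at least 10 reads in all 4 Sham libraries and in at least 3 CLP libraries, so no member entered through a single group.

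The cells were red pulp macrophages, the iron-recycling phagocytes of the spleen, sorted by flow cytometry from WT C57BL/6J mice. In the CLP group (4 libraries) the spleens were taken 2 h after CLP surgery, the caecal ligation and puncture used as a model of abdominal sepsis. In the Sham group (4 libraries) they were taken 2 h after sham surgery, and genotype, tissue and sort were the same. The series title places the comparison in a study of haemolysis in sepsis. Whether each library came from its own mouse is not stated, so the p-values measure the spread between these libraries.

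In a BTB zinc-finger protein, the BTB domain forms dimers and binds partners, among them co-repressors with HDAC3, BCOR and, in some members, the ubiquitin ligase scaffold Cullin-3. The zinc fingers read DNA, and several members bind methylated CpG sites or telomeric repeats. Most members act as repressors, and the family is best known for lineage decisions in blood cells, such as Zbtb7b (ThPOK) in CD4 T cells, Zbtb16 (PLZF) in natural killer T cells and Zbtb46 in classical dendritic cells.

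Of the 37 genes, 7 were higher and 16 lower after CLP, and 14 did not pass the test (edgeR quasi-likelihood test, Benjamini-Hochberg adjustment over all 14004 genes tested, threshold 0.05). The family thus split, with Zbtb21 at the upper end (log2 fold change of CLP over Sham 1.14 ± 0.12, SE) and Zbtb45 at the lower end (-1.95 ± 0.17). Among all genes tested, 43.3% were called, 19.8% higher and 23.5% lower. Among the Zbtb genes 62.2% were called: the share called higher, 18.9%, was close to that of all genes, and the share called lower was 43.2%. The median log2 fold change was -0.27 over the Zbtb genes and -0.05 over all genes tested. By a 2-fold limit, 1 member was higher (Zbtb21) and 4 were lower (Zbtb45, Zbtb3, Zbtb37 and Zbtb14), where 6.3% of all genes were 2-fold higher and 8.36% 2-fold lower.

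Whether some of the increases were called depended on how the libraries were scaled. Scaling by library totals in place of TMM (the trimmed mean of M values, which assumes that most genes do not move) shifted the median of all genes by -0.32 on the log2 scale. With library totals, 3 Zbtb genes were higher (Zbtb21, Zbtb10 and Zbtb43) and 24 lower, with a median of -0.59, where 9.18% of all genes were higher and 46.0% lower, with a median of -0.37. Under both scalings 13 members lay above the median of all genes. In bulk RNA, fewer cells of a kind and less RNA per cell cannot be told apart.

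**Figure D1:**
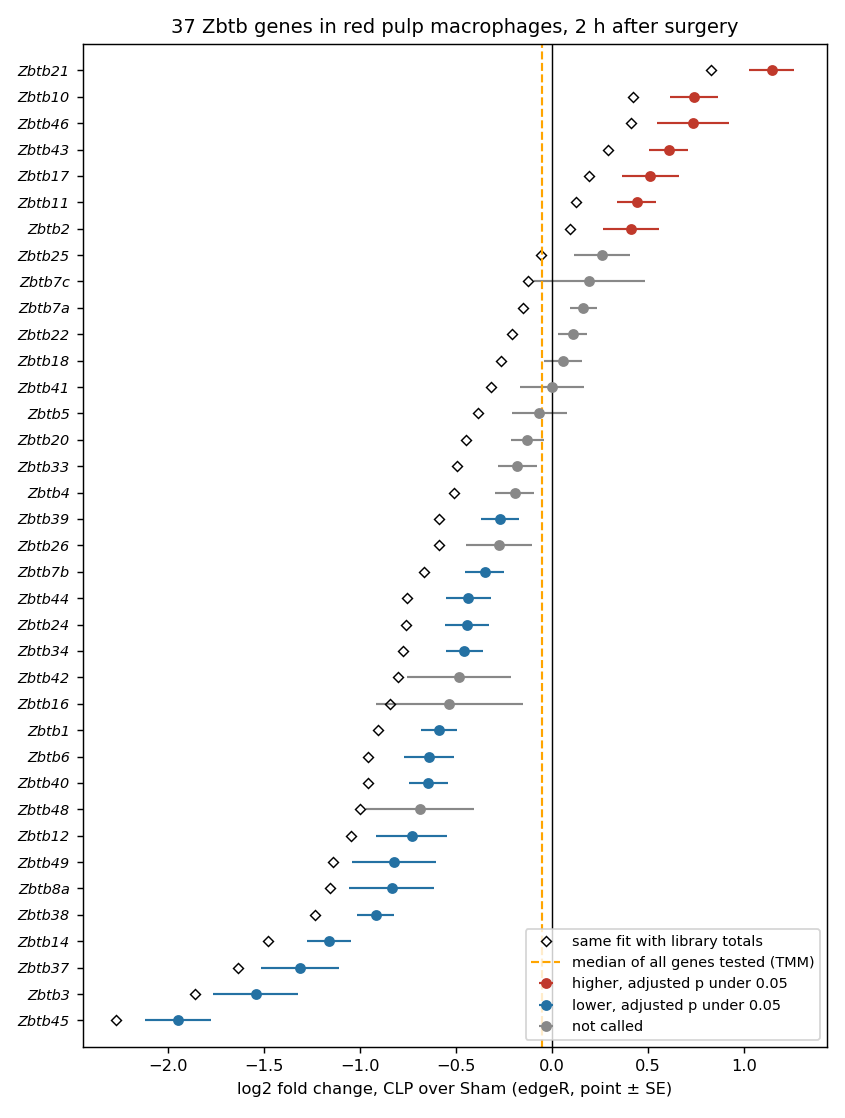
Log2 fold change of CLP over Sham (x axis) for each of the 37 Zbtb genes (y axis, ordered by value), with points and bars for the edgeR estimate ± SE, open diamonds for the same fit with library totals, and a dashed line at the median of all genes tested, -0.05. The 7 called increases sit at the top and the 16 called decreases below, and with library totals only Zbtb21, Zbtb10 and Zbtb43 of the 7 were still called higher.

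The libraries held 17333748 to 21409078 counts after CLP and 15392992 to 25665633 after Sham, so that 1 CPM (the read count scaled to library size, here with TMM factors) stood for 15.1 to 27.6 reads. The 8 markers of red pulp macrophages summed to 35700 to 40400 CPM after CLP and 30600 to 37700 CPM after Sham, with Vcam1 giving the largest part. Of these, Adgre1, Vcam1, Spic and Csf1r were called higher, Slc40a1 and Mertk lower, and Cd163 and Hmox1 did not pass the test. With library totals only Spic was still called higher, while Adgre1, Vcam1 and Csf1r were not called. Slc40a1 and Mertk stayed lower on that scale, and Cd163 was called lower as well. The Vcam1 call (adjusted p = 0.0196) also ended when CLP library 1, CLP library 2 or Sham library 2 was left out. T-cell markers summed to 108 to 130 CPM after CLP and 98.8 to 105 CPM after Sham, most of it Cd4. On average Cd4 had 86.1 CPM after CLP and 72.9 CPM after Sham, against 7.44 and 5.71 CPM for Cd3e. B and plasma cell markers summed to 44.1 to 81.4 CPM after CLP and 65.9 to 85.0 CPM after Sham, most of it Cd79b and Jchain. Both sums thus rest on few genes and were not taken as amounts of these cells. Neutrophil markers (9.93 to 27.1 CPM after CLP and 2.86 to 7.40 CPM after Sham), platelet markers (17.5 to 22.3 CPM after CLP and 6.62 to 7.78 CPM after Sham) and erythroid markers (439 to 824 CPM after CLP and 139 to 391 CPM after Sham) were higher in every CLP library than in any Sham library. No marker of the 9 lists was at 0 in all libraries, but some were all but absent. Ly6g had 1 read in CLP library 1 alone, and Gp1bb 1 read in Sham library 2 alone. Camp had 4 reads in CLP library 2 and 1 read in Sham library 1, and 0 elsewhere. The part of these other cells in the Zbtb values was not tested.

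As a whole the Zbtb genes took a smaller part of the reads after CLP. They held 0.124%, 0.128%, 0.132% and 0.124% of all counts in the CLP libraries, against 0.161%, 0.174%, 0.172% and 0.174% in the Sham libraries. On the TMM scale the difference was smaller, with summed levels of 1400.0, 1396, 1459 and 1426 CPM after CLP, against 1496, 1561, 1541 and 1512 CPM after Sham, and on both scales the groups did not overlap. Over all genes tested, the median log2 fold change was also negative, at -0.37 with library totals and -0.05 with TMM. On the TMM scale 41.5% of all genes tested did not overlap between the groups. Zbtb20, Zbtb4 and Zbtb7a together gave 41.7% to 45.3% of the Zbtb reads after CLP and 41.4% to 42.9% after Sham. Zbtb21 alone gave 5.72% to 6.70% of the Zbtb reads after CLP and 2.13% to 2.90% after Sham.

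Promoter sequence was taken from the RefSeq table of GRCm38.p6, in which 32 of the 37 genes had windows of 250 bases before to 50 after an annotated start. The windows of the Zbtb genes were rich in CpG, with a median of 27.5 CpG and 66.3% GC per window, against 7 CpG and 52.7% GC over 27025 genes, many of them not expressed here. These medians used the first listed window of each gene. Motifs were searched on both strands, and a gene was counted if any of its windows held a match. The GC box GGGCGG was found in 78.1% of the Zbtb genes and 38.2% of all genes, the ETS motif CCGGAAG in 34.4% and 9.90%, and the E-box CACGTG in 15.6% and 8.10%. The cyclic AMP response element TGACGTCA was found in 6.20% and 2.00%, the NRF1 motif GCGCATGC in 12.5% and 3.00%, the AP-1 motif TGANTCA in 3.10% and 9.00%, and the NF-kB consensus in 18.8% and 9.60%. The NF-kB consensus was matched at Zbtb21, called higher, at Zbtb14, called lower, and at Zbtb4, Zbtb7a, Zbtb26 and Zbtb41, not called. The AP-1 motif was matched at Zbtb46 alone of the 32. The ETS motif was matched at 11 genes: Zbtb11 and Zbtb43, called higher, Zbtb6, Zbtb24, Zbtb34, Zbtb37, Zbtb38 and Zbtb45, called lower, and Zbtb26, Zbtb33 and Zbtb41, not called. A match is a run of letters, not a measured binding site.

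The 200 bases before the outermost RefSeq start are given for 2 genes that were higher and 2 that were lower, to show what these promoters look like. Capitals mark matches to the motifs above, and each is written 5′ to 3′ on the gene's strand.
Zbtb21, chr16:97962628-97962827, minus strand: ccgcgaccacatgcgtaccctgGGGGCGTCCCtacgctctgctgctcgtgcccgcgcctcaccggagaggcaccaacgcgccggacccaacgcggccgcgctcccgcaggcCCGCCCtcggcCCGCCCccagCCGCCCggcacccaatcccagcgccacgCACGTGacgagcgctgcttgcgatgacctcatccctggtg
Zbtb17, chr4:141444473-141444672, plus strand: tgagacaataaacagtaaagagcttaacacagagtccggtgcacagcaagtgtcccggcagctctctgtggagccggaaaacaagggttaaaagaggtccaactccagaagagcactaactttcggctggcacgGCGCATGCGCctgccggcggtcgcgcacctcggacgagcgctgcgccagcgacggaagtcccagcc
Zbtb34, chr2:33431325-33431524, minus strand: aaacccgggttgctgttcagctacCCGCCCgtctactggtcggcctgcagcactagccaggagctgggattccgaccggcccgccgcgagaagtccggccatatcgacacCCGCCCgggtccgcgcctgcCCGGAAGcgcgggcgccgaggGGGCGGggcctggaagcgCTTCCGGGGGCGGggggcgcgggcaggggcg
Zbtb37, chr1:161034865-161035064, minus strand: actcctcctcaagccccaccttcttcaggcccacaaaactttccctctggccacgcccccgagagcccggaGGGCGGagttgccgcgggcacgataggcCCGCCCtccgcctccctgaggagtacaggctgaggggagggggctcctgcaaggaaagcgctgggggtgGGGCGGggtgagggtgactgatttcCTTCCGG
The Zbtb21 run holds, in order, an NF-kB consensus match, GC boxes and an E-box, and the Zbtb17 run an NRF1 motif matched on both strands, where the matches overlap. The runs of Zbtb34 and Zbtb37, both lower, hold GC boxes and ETS motifs.

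Zbtb21 (ENSMUSG00000046962, chromosome 16), which encodes a repressor (ZNF295 in humans) that binds ZBTB14, had the largest increase. Its level was 81.2, 79.8, 97.7 and 93.5 CPM in the CLP libraries, against 38.2, 45.2, 43.8 and 32.2 CPM in the Sham libraries. Every CLP library lay above every Sham library, at 2.21 times the Sham level (log2 fold change 1.14 ± 0.12, adjusted p = 2.23e-05), and the log2 fold change with library totals was 0.83. Its partner Zbtb14 (ENSMUSG00000049672, chromosome 17), the GC-rich element binder first described as a repressor of Myc, moved the other way, at 8.01, 9.30, 8.66 and 8.54 CPM in the CLP libraries, against 20.2, 20.5, 16.5 and 20.2 CPM in the Sham libraries. The Zbtb14 groups did not overlap, and the Sham level was 2.24 times the CLP level (log2 fold change -1.16 ± 0.12, adjusted p = 2.01e-05). The ratio of Zbtb21 to Zbtb14 reads, which does not depend on the scaling, was 10.1, 8.58, 11.3 and 11.0 in the CLP libraries, against 1.89, 2.21, 2.65 and 1.59 in the Sham libraries.

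Zbtb10, which encodes a binder of GC-rich elements and telomeric repeats in human cells, and Zbtb43, studied in mouse germ cells, also rose under both scalings. Zbtb10 had 53.2, 45.5, 41.0 and 43.5 CPM in the CLP libraries, against 28.2, 32.5, 27.4 and 21.8 CPM in the Sham libraries. Its log2 fold change was 0.74 ± 0.12 (adjusted p = 0.0007; 0.42 with library totals). Zbtb43 had 41.8, 32.9, 37.6 and 38.0 CPM in the CLP libraries, against 24.7, 23.4, 28.3 and 22.4 CPM in the Sham libraries. Its log2 fold change was 0.61 ± 0.10 (adjusted p = 0.000682; 0.29 with library totals). All 4 CLP libraries lay above all 4 Sham libraries for both genes, 1.67-fold higher on average for Zbtb10 and 1.52-fold for Zbtb43.

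For the other 4 genes called higher the call was lost with library totals. Zbtb46, the factor that marks classical dendritic cells, had 21.6, 20.2, 13.4 and 24.6 CPM in the CLP libraries, against 11.9, 9.18, 13.2 and 13.7 CPM in the Sham libraries. CLP library 3 lay within the Sham range and the other 3 CLP libraries above it (log2 fold change 0.73 ± 0.19, adjusted p = 0.00828). The log2 fold change of Zbtb46 with library totals was 0.41 (adjusted p = 0.0807). Summed dendritic cell markers were 37.3 to 54.2 CPM after CLP and 24.2 to 40.7 CPM after Sham. Of these 6 genes, the migration receptor Ccr7 was called higher (26.9 ± 2.87 CPM after CLP and 9.78 ± 3.87 CPM after Sham, SD, n = 4 each; adjusted p = 0.000636), and Clec9a was called lower. The dendritic cell receptor Flt3 averaged 7.88 ± 2.83 CPM after CLP and 6.91 ± 1.34 CPM after Sham (adjusted p = 0.552). The part of dendritic cells in the Zbtb46 value was not tested.

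Zbtb17 encodes Miz-1, the zinc-finger partner through which Myc represses genes. It had 19.4, 18.5, 25.7 and 27.8 CPM in the CLP libraries, against 13.4, 17.6, 17.1 and 15.9 CPM in the Sham libraries. The groups did not overlap (log2 fold change 0.51 ± 0.15, adjusted p = 0.0169). The call was lost without CLP library 4 (adjusted p = 0.0579) and with library totals (log2 fold change 0.19). Its exons share 41 bases with Spen on the opposite strand, which averaged 253 ± 80.5 CPM after CLP and 178 ± 10.6 CPM after Sham (adjusted p = 0.0806). Zbtb11, needed for mitochondrial function and, in zebrafish, for neutrophil development, had 53.7, 56.1, 71.2 and 61.0 CPM in the CLP libraries, against 40.6, 48.3, 47.2 and 42.2 CPM in the Sham libraries. Here too the groups did not overlap (log2 fold change 0.44 ± 0.10, adjusted p = 0.00465; 0.12 with library totals).

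Zbtb2, a repressor of the cell-cycle inhibitor gene CDKN1A in human cells, had 15.9, 20.4, 20.3 and 24.4 CPM in the CLP libraries, against 16.1, 15.7, 16.9 and 12.3 CPM in the Sham libraries. CLP library 1 lay within the Sham range, and the other 3 CLP libraries lay above it (log2 fold change 0.41 ± 0.14, adjusted p = 0.0394). Leaving out any one of CLP libraries 2, 3 or 4 or Sham libraries 2 or 4 ended the call, with adjusted p up to 0.124, and so did library totals (log2 fold change 0.09).

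**Figure D2:**
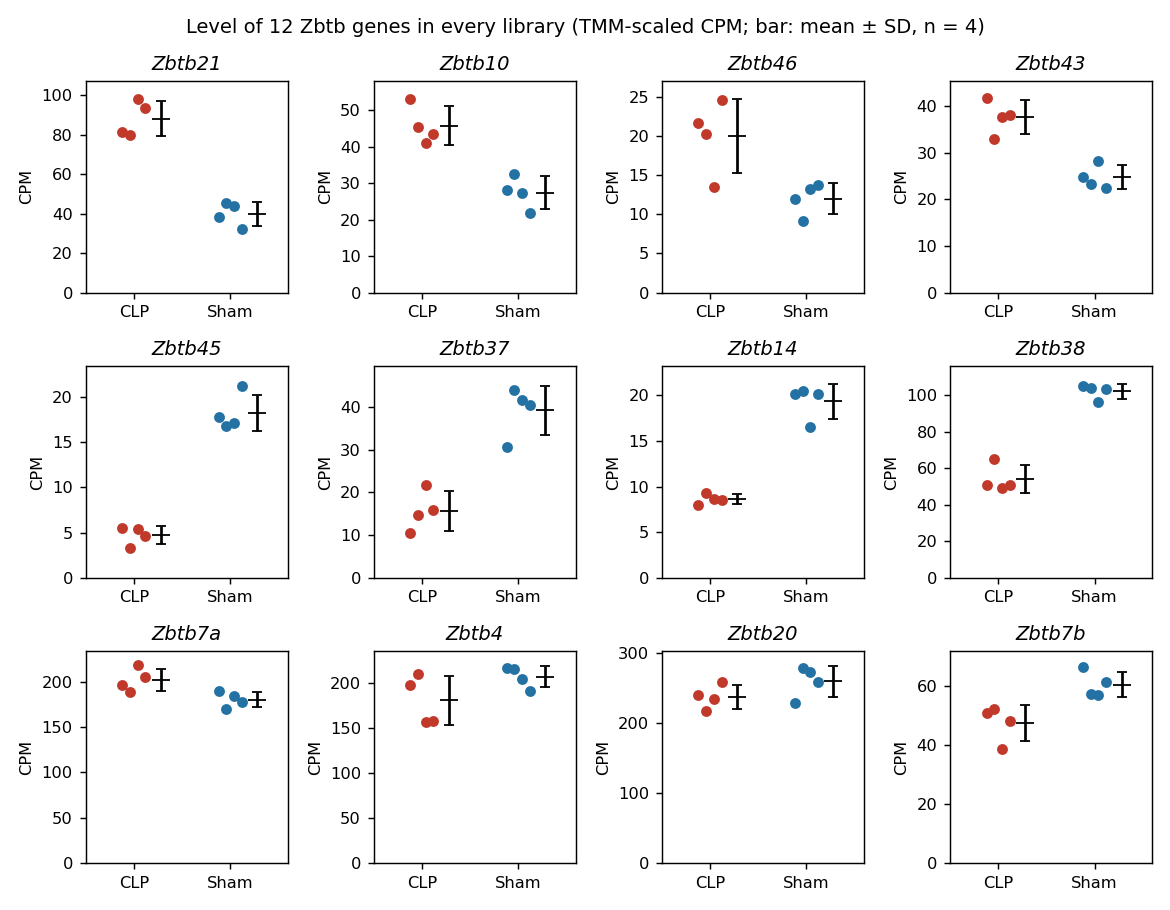
Level (TMM-scaled CPM, y axis from 0) of 12 Zbtb genes in each of the 4 CLP and 4 Sham libraries, 1 point per library, with the mean ± SD beside the points. The top row holds the 4 largest called increases, the middle row 4 of the 5 largest decreases, and the bottom row 4 other abundant genes, where Zbtb7a, Zbtb4 and Zbtb20 overlap between the groups and Zbtb7b does not.

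The largest decrease in the family was that of Zbtb45 (ENSMUSG00000049600, chromosome 7), known for glial differentiation. Its level was 5.51, 3.32, 5.43 and 4.63 CPM in the CLP libraries, against 17.8, 16.8, 17.1 and 21.2 CPM in the Sham libraries. The highest CLP library stood well under the lowest Sham library, and the Sham level was 3.87 times the CLP level (log2 fold change -1.95 ± 0.17, adjusted p = 9.38e-06). Zbtb3 had 1.34, 1.12, 1.26 and 0.926 CPM in the CLP libraries, against 3.402, 2.92, 3.67 and 3.66 CPM in the Sham libraries. This was a Sham level 2.92 times the CLP level (log2 fold change -1.54 ± 0.22, adjusted p = 0.000246). This gene was near the lower limit of measurement, at 21, 22, 23 and 14 reads in the CLP libraries and 94, 71, 63 and 89 reads in the Sham libraries, and its groups did not overlap.

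Zbtb37 (ENSMUSG00000043467, chromosome 1) had 10.4, 14.6, 21.8 and 15.9 CPM in the CLP libraries, against 30.7, 44.0, 41.5 and 40.5 CPM in the Sham libraries. This was a Sham level 2.49 times the CLP level (log2 fold change -1.32 ± 0.20, adjusted p = 0.000598). In the GRCm38 annotation it starts head to head with Gas5, the host gene of small nucleolar RNAs. Gas5 averaged 28.03 ± 2.53 CPM after CLP and 27.1 ± 3.34 CPM after Sham (SD, n = 4 each; adjusted p = 0.74; log2 fold change -0.27 with library totals). A stretch of 2942 exon bases of Zbtb37 is shared with Serpinc1 on the opposite strand, and Serpinc1 itself averaged 0.710 ± 0.357 CPM after CLP and 0.662 ± 0.458 CPM after Sham. The Zbtb37 groups did not overlap, while Gas5 did not pass the test.

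Zbtb38, which encodes a binder of methylated CpG sites, had 51.0, 65.3, 49.2 and 50.8 CPM in the CLP libraries, against 105, 104, 96.1 and 103 CPM in the Sham libraries. The Sham level was 1.89 times the CLP level (log2 fold change -0.92 ± 0.10, adjusted p = 2.65e-05), and CLP library 2 lay above the other 3 CLP libraries but still under all Sham libraries. Zbtb8a had 1.99, 1.48, 2.03 and 2.58 CPM in the CLP libraries, against 3.76, 3.09, 3.96 and 3.58 CPM in the Sham libraries (log2 fold change -0.84 ± 0.22, adjusted p = 0.0106). It shares 264 exon bases with Zbtb8os on the opposite strand, which was also lower (log2 fold change -0.46 ± 0.12). Zbtb49, an activator of CDKN1A in human cells, had 4.36, 4.40, 8.71 and 5.10 CPM in the CLP libraries, against 9.08, 9.59, 10.4 and 11.0 CPM in the Sham libraries (log2 fold change -0.82 ± 0.22, adjusted p = 0.0104). Zbtb12, which lies in the major histocompatibility complex, had 7.75, 6.59, 12.6 and 7.54 CPM in the CLP libraries, against 15.4, 14.0, 14.5 and 13.4 CPM in the Sham libraries (log2 fold change -0.73 ± 0.19, adjusted p = 0.00843). Its opposite-strand neighbour C2, the complement component sharing 161 exon bases, was higher after CLP (log2 fold change 0.35 ± 0.11, adjusted p = 0.0237), a call that was lost with library totals (log2 fold change 0.04, adjusted p = 0.76). In each of these 4 genes all CLP libraries lay under all Sham libraries, with CLP library 3 the highest CLP library for Zbtb49 and Zbtb12.

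The remaining 8 called decreases were smaller. Zbtb40 averaged 12.9 ± 0.574 CPM after CLP and 20.2 ± 1.54 CPM after Sham (SD, n = 4 each; log2 fold change -0.64 ± 0.10, adjusted p = 0.000406). Zbtb6 averaged 21.04 ± 4.26 CPM after CLP and 32.9 ± 2.23 CPM after Sham (log2 fold change -0.64 ± 0.13, adjusted p = 0.00213). Zbtb34 averaged 33.0 ± 3.53 CPM after CLP and 45.3 ± 3.73 CPM after Sham (log2 fold change -0.46 ± 0.10, adjusted p = 0.00282), and Zbtb44 averaged 37.8 ± 5.75 CPM after CLP and 51.1 ± 5.39 CPM after Sham (log2 fold change -0.44 ± 0.12, adjusted p = 0.0104). Zbtb39 had 19.9, 24.5, 24.1 and 25.9 CPM in the CLP libraries, against 26.8, 30.4, 27.9 and 28.9 CPM in the Sham libraries. It was just past the threshold (log2 fold change -0.27 ± 0.10, adjusted p = 0.0448). Leaving out any single library other than CLP library 4 ended the call, with adjusted p up to 0.165. The other 3, Zbtb1, Zbtb7b and Zbtb24, are described with their roles. Over the family, called or not, the CLP and Sham libraries did not overlap in 21 of 37 genes, 16 of them lower and 5 higher after CLP, where 41.5% of all genes tested did not overlap.

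Of the lymphocyte regulators, Zbtb1, needed for lymphoid development, had 27.4, 33.3, 29.6 and 25.4 CPM in the CLP libraries, against 43.6, 42.7, 42.0 and 46.1 CPM in the Sham libraries. The groups did not overlap (log2 fold change -0.59 ± 0.09, adjusted p = 0.000462). Its head-to-head neighbour Zbtb25 had 9.93, 9.30, 8.22 and 9.07 CPM in the CLP libraries, against 7.67, 9.14, 7.28 and 6.41 CPM in the Sham libraries. It did not pass the test (adjusted p = 0.178). Zbtb7b (ThPOK), the CD4 T-cell factor, had 50.9, 52.3, 38.6 and 48.4 CPM in the CLP libraries, against 66.4, 57.3, 57.2 and 61.4 CPM in the Sham libraries. The groups did not overlap (log2 fold change -0.35 ± 0.10, adjusted p = 0.0162). Without Sham library 1 the call was lost (log2 fold change -0.27, adjusted p = 0.0852). Cd4 averaged 86.1 ± 11.0 CPM after CLP and 72.9 ± 4.08 CPM after Sham, and the T-cell receptor chain gene Cd3e 7.44 ± 3.85 CPM after CLP and 5.71 ± 2.62 CPM after Sham. None of the 8 T-cell markers was called in either direction. The part of T cells in the Zbtb7b value was not tested.

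Zbtb16 (PLZF), the factor of natural killer T cells, was scarce, at 0.577, 1.43, 2.69 and 1.19 CPM in the CLP libraries, against 2.79, 1.81, 1.98 and 2.02 CPM in the Sham libraries. CLP library 3 held the second highest level of all 8 libraries, and the groups overlapped (log2 fold change -0.53 ± 0.38, adjusted p = 0.291). Without that library the gene was called lower (log2 fold change -0.995, adjusted p = 0.0354). CLP library 3 also had the highest summed T-cell, natural killer cell, dendritic cell, neutrophil, monocyte and erythroid markers of the CLP group. Natural killer cell markers summed to 2.85 to 7.95 CPM after CLP and 4.27 to 5.88 CPM after Sham. Of the 4 of these markers that were tested, only Ncr1 was called, and it was lower (log2 fold change -2.05 ± 0.41, adjusted p = 0.002). Ncr1 was scarce, with 4, 3, 4 and 3 reads in the CLP libraries and 18, 16, 17 and 29 reads in the Sham libraries. The part of natural killer cells in the Zbtb16 value was not tested. Zbtb32, a repressor in activated lymphocytes, failed the count rule, with 6, 9, 1 and 3 reads in the CLP libraries and 3, 0, 0 and 0 reads in the Sham libraries.

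Zbtb20, which is known to promote Toll-like receptor responses in macrophages and the survival of plasma cells, had 239.9, 216, 234 and 258 CPM in the CLP libraries, against 228, 279, 272 and 258 CPM in the Sham libraries. The groups overlapped (log2 fold change -0.13 ± 0.08, adjusted p = 0.246). With library totals the gene was called lower (log2 fold change -0.45, adjusted p = 0.000965). Zbtb18 (RP58), a repressor best known from the developing brain, had 33.1, 34.4, 39.6 and 34.1 CPM in the CLP libraries, against 32.6, 30.6, 33.1 and 39.6 CPM in the Sham libraries. Its groups overlapped too (log2 fold change 0.06 ± 0.10, adjusted p = 0.684).

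Per kilobase of exon the order of abundance was led by Zbtb7a (LRF), which silences fetal globin genes in erythroid cells and directs lymphoid fate. It had 29.7 ± 1.83 CPM per kb after CLP and 26.5 ± 1.22 CPM per kb after Sham (SD, n = 4 each). Per library it had 196, 189, 218 and 205 CPM in the CLP libraries, against 189, 170.3, 184 and 177 CPM in the Sham libraries. The highest Sham library lay within the CLP range (log2 fold change 0.16 ± 0.07, adjusted p = 0.0815). DESeq2 called the gene higher (log2 fold change 0.20, adjusted p = 0.0227), as did the edgeR fit without Sham library 1 (adjusted p = 0.0399), while with library totals its direction turned (log2 fold change -0.15, adjusted p = 0.0717).

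Zbtb4, a methyl-CpG binder, came next with 22.2 ± 3.38 CPM per kb after CLP and 25.4 ± 1.44 CPM per kb after Sham. By library it had 198, 209.7, 157 and 158 CPM in the CLP libraries, against 216, 215, 204 and 191 CPM in the Sham libraries. CLP libraries 3 and 4 lay under all Sham libraries, and CLP libraries 1 and 2 within the Sham range (log2 fold change -0.19 ± 0.10, adjusted p = 0.152). Without CLP library 2 it was called lower (adjusted p = 0.0464), and likewise with library totals (log2 fold change -0.51). Zbtb22, a gene of the extended major histocompatibility complex, had 15.3 ± 0.684 CPM per kb after CLP and 14.2 ± 0.690 CPM per kb after Sham. By library this was 42.7, 42.1, 39.6 and 39.0 CPM in the CLP libraries, against 37.6, 40.02, 35.6 and 38.4 CPM in the Sham libraries. It was not called (adjusted p = 0.273) but was called lower with library totals (log2 fold change -0.21, adjusted p = 0.0449). In the annotation 149 of its exon bases are shared with Tapbp on the same strand, whose level averaged 542 ± 22.4 CPM after CLP and 437 ± 45.5 CPM after Sham. After CLP the next was Zbtb21, with 13.9 ± 1.41 CPM per kb after CLP and 6.29 ± 0.937 CPM per kb after Sham. After Sham the next was Zbtb7b, with 8.51 ± 1.10 CPM per kb after CLP and 10.8 ± 0.779 CPM per kb after Sham, and Zbtb21 stood lower in the order. The lowest level after Sham was that of Zbtb7c, with 0.322 ± 0.0826 CPM per kb after CLP and 0.281 ± 0.0575 CPM per kb after Sham, and the lowest after CLP that of Zbtb16, with 0.279 ± 0.168 CPM per kb after CLP and 0.407 ± 0.0822 CPM per kb after Sham.

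Among the members tied to DNA methylation, the genes called lower were Zbtb38 and Zbtb24. Zbtb24, mutated in an immunodeficiency with hypomethylated centromeric repeats and an activator of Cdca7, had 10.3, 10.7, 13.3 and 11.0 CPM in the CLP libraries, against 15.6, 15.5, 14.3 and 16.1 CPM in the Sham libraries. The groups did not overlap (log2 fold change -0.44 ± 0.12, adjusted p = 0.00974). Zbtb33 (Kaiso), a methyl-CpG binder, had 30.7, 25.7, 35.5 and 29.6 CPM in the CLP libraries, against 35.1, 33.5, 36.2 and 32.8 CPM in the Sham libraries. The groups overlapped (log2 fold change -0.18 ± 0.10, adjusted p = 0.177). Without CLP library 3 it was called lower (adjusted p = 0.0354), as it was with library totals. Of the telomere binders, Zbtb10 was higher, and Zbtb48 (TZAP), which trims long telomeres, had 2.43, 2.04, 5.32 and 3.24 CPM in the CLP libraries, against 6.08, 5.23, 5.48 and 4.24 CPM in the Sham libraries. CLP library 3 alone lay within the Sham range, and the test was not passed (log2 fold change -0.69 ± 0.28, adjusted p = 0.0694). Without that library Zbtb48 was called lower (log2 fold change -1.03, adjusted p = 0.00368), as it also was by limma-voom and with library totals.

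Of the other genes that were not called, Zbtb26 averaged 8.52 ± 1.95 CPM after CLP and 10.3 ± 1.12 CPM after Sham (adjusted p = 0.225), and without CLP library 3 it was called lower (adjusted p = 0.049). Zbtb5, a repressor of CDKN1A in human cells, averaged 33.7 ± 7.75 CPM after CLP and 35.2 ± 1.80 CPM after Sham (adjusted p = 0.74), and Zbtb41 23.1 ± 6.28 CPM after CLP and 23.1 ± 1.51 CPM after Sham (adjusted p = 0.995). The members nearest the count limit were Zbtb7c and Zbtb42, for which 4 libraries reached 26 and 35 reads. Zbtb7c had 1.92, 1.02, 1.43 and 1.72 CPM in the CLP libraries, against 1.12, 1.61, 1.51 and 1.07 CPM in the Sham libraries. Zbtb42 had 1.34, 1.79, 1.70 and 1.32 CPM in the CLP libraries, against 1.70, 2.35, 1.63 and 2.96 CPM in the Sham libraries. Both overlapped between the groups (adjusted p = 0.622 for Zbtb7c and 0.173 for Zbtb42). Just outside the limit stood Zbtb32, for which 4 libraries reached 3 reads. Zbtb8b and Zbtb9 had 0 reads in every library, which allows levels up to 0.109 to 0.199 CPM per library by counting error alone. Of Zbtb9, 2938 exon bases are shared with Ggnbp1 on the same strand, which had 1, 0, 1 and 3 reads in the CLP libraries and 4, 1, 4 and 3 reads in the Sham libraries.

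The median coefficient of variation over the 37 genes was 15.2% in CLP libraries and 9.83% in Sham libraries. CLP library 3 was the highest of its group for 16 of the 37 genes and for 6 of the 16 called lower. The log2 fold change went with abundance, as a description across genes that share the 8 libraries, with Spearman rho 0.348 over the 37 genes against their log2 mean CPM and 0.258 over all genes tested. All 7 genes called higher had a mean of at least 10 CPM, and 3 of the 16 called lower were under it, where 9 of all 37 members were under it. Against exon length rho was 0.118. In the annotation, 13 of the members share exon sequence with a gene of the opposite strand and 6 with a gene of the same strand, and reads there cannot be assigned with certainty, since the labels do not state the strand setting or how shared reads were counted.

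Several members lie side by side in the genome and were compared within each library. Zbtb43 and Zbtb34, which both hold an ETS motif in their windows, are neighbours on chromosome 2, and the ratio of their reads was 1.31, 1.00, 0.996 and 1.30 in the CLP libraries, against 0.594, 0.533, 0.620 and 0.444 in the Sham libraries. Zbtb25 and Zbtb1 start head to head on chromosome 12, with a ratio of 0.363, 0.279, 0.277 and 0.357 after CLP, against 0.176, 0.214, 0.173 and 0.139 after Sham. For Zbtb26 over Zbtb6, which share 449 exon bases on chromosome 2, the ratio was 0.423, 0.461, 0.403 and 0.334 after CLP and 0.280, 0.336, 0.316 and 0.324 after Sham. The groups did not overlap for the Zbtb43 and Zbtb25 ratios, and for Zbtb26 over Zbtb6 CLP library 4 lay within the Sham range. These ratios were picked after the values were seen and carry no test.

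**Figure D3:**
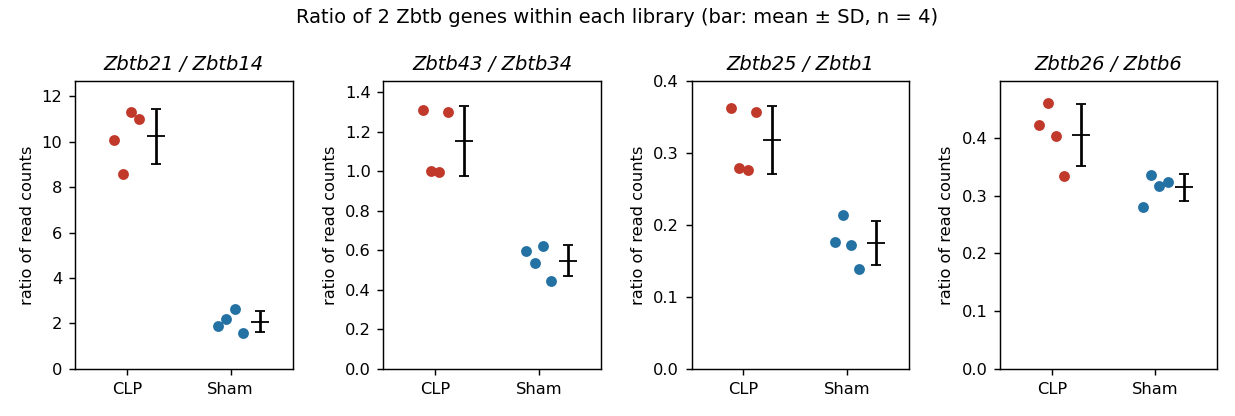
Ratio of the reads of 2 Zbtb genes within each library (y axis from 0, no unit) for 4 CLP and 4 Sham libraries, 1 point per library, with the mean ± SD beside the points. The ratio of Zbtb21 to Zbtb14 was 8.58 to 11.3 after CLP and 1.59 to 2.65 after Sham, and the Zbtb43 and Zbtb25 ratios also did not overlap.

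Of 8 BTB zinc-finger genes that carry other names, 1 was called higher and 1 lower on the TMM scale. This was 25.0% called, against 43.3% of all genes, with a median log2 fold change of -0.15. By library totals the calls were 1 higher and 4 lower, where 9.18% of all genes were higher and 46.0% lower. Gzf1, the GDNF-inducible repressor, had 110.2, 83.3, 116 and 119 CPM in the CLP libraries, against 52.4, 50.5, 55.2 and 43.8 CPM in the Sham libraries (log2 fold change 1.09 ± 0.12, adjusted p = 3.49e-05). Patz1, a regulator of T-cell development, had 11.4, 13.7, 10.6 and 10.4 CPM in the CLP libraries, against 36.0, 33.6, 30.4 and 36.7 CPM in the Sham libraries (log2 fold change -1.57 ± 0.12, adjusted p = 2.9e-06). Bcl6, the repressor of germinal-centre B cells and of inflammatory genes in macrophages, averaged 104 ± 15.7 CPM after CLP and 104 ± 14.8 CPM after Sham (adjusted p = 0.977; log2 fold change -0.31 with library totals). The groups did not overlap for Gzf1 and Patz1.

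Of 24 genes of the co-repressor complexes and Cullin-3, 25.0% were higher (6 genes) and 12.5% lower (3 genes), against 19.8% and 23.5% of all genes, with a median log2 fold change of 0.01. By library totals the calls were 1 higher and 14 lower, where 9.18% of all genes were higher and 46.0% lower. The largest increase was that of Bcor, the BCL6 co-repressor, at 144, 108, 161 and 187 CPM in the CLP libraries, against 59.2, 56.2, 63.4 and 52.7 CPM in the Sham libraries. Every CLP library was above every Sham library (log2 fold change 1.37 ± 0.15, adjusted p = 4.87e-05; 1.05 with library totals). Also called higher were Sin3a (0.41 ± 0.07), the NuRD helicase gene Chd4 (0.39 ± 0.07), Cul3 (0.36 ± 0.06) and Tbl1x (0.33 ± 0.07), all as log2 fold changes ± SE, and none of these 4 was called higher with library totals. Rcor1 (CoREST) had the largest decrease, at 27.6 ± 2.59 CPM after CLP and 41.2 ± 3.58 CPM after Sham (log2 fold change -0.58 ± 0.10, adjusted p = 0.000645), and Hdac5 and Mta3 were the other 2 called lower. The Hdac5 call (adjusted p = 0.0377) ended when any single library other than CLP library 2 or Sham library 3 was left out, with adjusted p up to 0.136. The Mta3 call (adjusted p = 0.0297) ended when any single library other than CLP library 2 was left out, with adjusted p up to 0.131, and with DESeq2 (adjusted p = 0.0654). Chd4, the most abundant of the 24 per kilobase of exon, had 76.4 ± 2.74 CPM per kb after CLP and 58.4 ± 3.33 CPM per kb after Sham.

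Of 10 genes known to work with single Zbtb proteins, 1 was higher and 2 were lower, so that 30.0% were called, against 43.3% of all genes. By library totals the calls were 1 higher and 7 lower, where 9.18% of all genes were higher and 46.0% lower. Myc, the partner of Miz-1, averaged 89.9 ± 12.2 CPM after CLP and 54.9 ± 7.46 CPM after Sham (log2 fold change 0.71 ± 0.12, adjusted p = 0.000563; 0.39 with library totals). Dnmt3a and Dnmt3b, the de novo DNA methyltransferases, were the 2 called lower. Dnmt3a averaged 142 ± 23.4 CPM after CLP and 213 ± 17.9 CPM after Sham (log2 fold change -0.58 ± 0.11, adjusted p = 0.00161), and the scarce Dnmt3b averaged 1.76 ± 0.690 CPM after CLP and 4.14 ± 0.885 CPM after Sham (log2 fold change -1.22 ± 0.29, adjusted p = 0.00598). Cdca7, which Zbtb24 activates, averaged 1.66 ± 0.608 CPM after CLP and 2.38 ± 1.19 CPM after Sham and did not pass the test (adjusted p = 0.292).

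The Zbtb genes were set beside the families that share one of their domains. Of 334 tested Zfp, Zscan and Zkscan genes, which carry C2H2 zinc fingers mostly without a BTB domain, 5.69% were higher and 71.0% lower, with a median log2 fold change of -0.93 (11 higher and 283 lower with library totals). Of 30 tested Klhl and Kbtbd genes, which carry a BTB domain with kelch repeats, 0 were higher and 70.0% lower, with a median of -0.89 (0 and 25 with library totals). For the Zbtb genes the shares were 18.9% higher and 43.2% lower (3 and 24 genes with library totals). These are counts from the same 8 libraries, and the difference between the families was not tested.

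**Figure D4:**
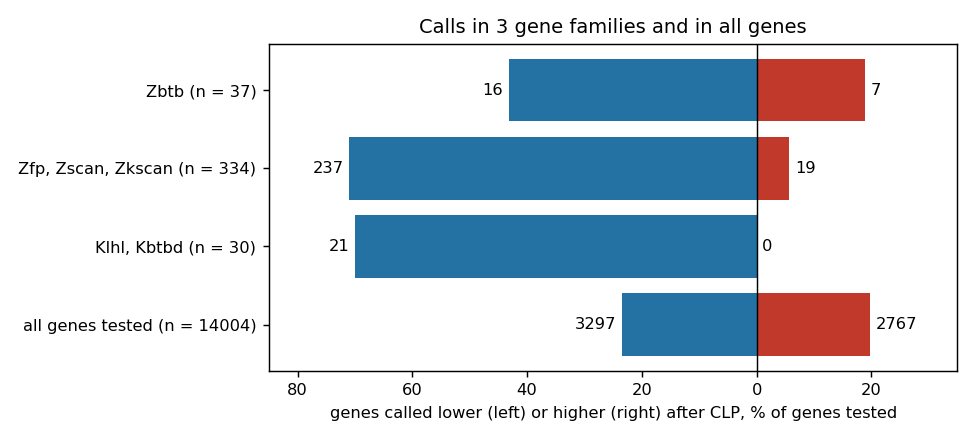
Share of tested genes called lower (bars to the left) or higher (bars to the right) after CLP, in % of the genes tested, for the Zbtb genes, 2 families that share a domain with them and all genes, with the number of genes at each bar. Of 37 Zbtb genes 7 were higher and 16 lower on the TMM scale (3 and 24 with library totals), against 19 and 237 of 334 Zfp, Zscan and Zkscan genes (11 and 283) and 0 and 21 of 30 Klhl and Kbtbd genes (0 and 25).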

How the data were processed

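RNA-seq counts of sorted red pulp macrophages were analysed, 4 libraries after CLP and 4 after Sham; the titles gave group and replicate number. Raw counts per Ensembl gene were deposited by the authors as 1 table. Per the labels' protocols, libraries were made with a stranded kit and sequenced on an Element AVITI. FastQC, STAR 2.7.10b, featureCounts, DESeq2 and mm39 are named in the submitters' processing notes; the annotation release and the strand setting are not given in the labels. Symbols (52081 of 55414 rows), exon lengths, exon overlaps and gene neighbours came from GENCODE M21 (GRCm38), not the files' build.

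Members and lists were chosen with earlier results of these data known. One edgeR fit (version 4.0.16, R 4.3.3) covered the 14004 genes that filterByExpr kept, with a robust quasi-likelihood F-test of group alone and Benjamini-Hochberg adjustment over these genes. The fit was first run on simulated data. There few genes were changed, as many up as down, so the run could not check the scaling where many genes move. TMM factors ranged over 0.873 to 0.915 (CLP) and 1.08 to 1.15 (Sham). Each SE was obtained as |log2 fold change| over the root of F. CPM are TMM-scaled. Libraries of a group differed beyond sampling noise (chi-square at least 9.25 per degree of freedom), so each counts once. Values in every library are given for the 8 highest and 8 lowest called members, the 5 highest per kilobase, members with a known role in blood cells, DNA methylation or telomeres, and those nearest the count limit; from the other lists, the largest called changes and the most abundant gene are named. Genes named outside this rule, such as overlapping neighbours, were chosen after their values were seen. Not every called list gene is reported here. Alternatives were DESeq2 1.42.0, limma-voom (limma 3.58.1) with sample weights, DESeq2 size factors, library totals, other filters, a replicate block and leaving out each library. Sequences came from RefSeq (GRCm38.p6).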

Additional observations from a re-analysis of the deposited data

Results flagged for a closer look

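Among 74 sets of 4 libraries (37 genes, 2 groups), 4 held a library that stood apart from the other 3 by the gap to its nearest neighbour, at a limit that chance passes in about 5% of sets. Zbtb38 was 65.3 CPM in CLP library 2, against 49.2 to 51.0 CPM in the other CLP libraries. Zbtb49 was 8.71 CPM in CLP library 3, against 4.36 to 5.10 CPM in the others, and Zbtb6 was 27.4 CPM in the same library, against 18.0 to 19.4 CPM. Zbtb14 was 16.5 CPM in Sham library 3, against 20.2 to 20.5 CPM in the other Sham libraries. All 4 genes were called lower with and without each library.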

How the results depend on the processing

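Of the 23 called Zbtb genes, 17 kept their direction and call in every alternative run: Zbtb21, Zbtb10 and Zbtb43 among the higher, and 14 of the 16 lower, all but Zbtb7b and Zbtb39. With library totals, 3 Zbtb genes were higher, 4 BTB zinc-finger genes under other names were lower, 1 co-repressor or Cullin-3 gene was higher and 14 were lower, 7 partner genes were lower, and 1286 of all genes were higher and 6435 lower. With limma-voom, 2 BTB zinc-finger genes under other names and 4 partner genes were lower, and with DESeq2 size factors 1 co-repressor gene was lower; the cause was not tested. Leaving out 1 library at a time gave 5 to 8 higher and 14 to 19 lower Zbtb genes, with 19 lower without CLP library 3, and 2310 to 2847 higher and 2639 to 3458 lower among all genes. It gave 1 to 2 lower genes under other names (2 without CLP library 3), 6 to 7 higher and 1 to 4 lower co-repressor genes (1 without CLP library 1, 3 or 4 or Sham library 1 or 2), and 2 to 4 lower partner genes (4 without CLP library 3). DESeq2 gave 8 higher and 15 lower Zbtb genes. Signs turned only in genes that had not passed the test: with library totals Zbtb18 (-0.26), Zbtb22 (-0.21), Zbtb25 (-0.058), Zbtb7a (-0.15) and Zbtb7c (-0.13), log2 fold changes all; in Zbtb41, which lay near 0 (0.036 with DESeq2, 0.0359 with its size factors, and -0.16 to 0.11 over the libraries left out); in Zbtb5 without CLP library 2 (-0.20 to 0.060 over the libraries left out); and in Zbtb18 without CLP library 3 (-0.0022 to 0.16). Depth was lowest for genes such as Zbtb16, which rested on 9 to 49 reads in a CLP library and 34 to 77 in a Sham library.

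The replicate numbers showed no consistent pairing of the libraries: deviations of same-numbered libraries correlated at 0.07, -0.04, 0.26 and -0.19, and 2 of 8 libraries correlated best with their own number. So few correlations cannot exclude that same-numbered libraries were handled together. With a replicate block 6 Zbtb genes were higher and 16 lower, Zbtb2 no longer being called (adjusted p = 0.0777).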
